A study of Mus musculus with 5 samples.

Results

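The genes described here, 10 of the 15180 genes in the table, cover the supply of serine, one-carbon units, asparagine and imported amino acids in fibroblasts sorted from mouse pancreatic tumours. They were chosen by name: Psat1, Phgdh and Psph (serine synthesis), Shmt2 and Mthfd2 (mitochondrial one-carbon metabolism), Asns (asparagine synthesis), Slc7a11, Slc7a5 and Slc3a2 (amino acid transporters) and Trib3 (a pseudokinase induced by stress). All 10 were found, 1 row each, and all 10 passed the minimum level for testing, as did 13183 genes in total. There were 2 libraries from tumours treated with LDE225 (sonidegib, an inhibitor of Smoothened, which passes on the Hedgehog signal), and 3 libraries from tumours given vehicle. Both agents were given by oral gavage over 14 days after tumours had formed. The tumours were of the KPC model, a genetically engineered model in which mice develop pancreatic cancer. Alleles, ages and the number of mice behind a library are not stated in the labels, and p-values therefore measure the spread between these libraries, which may be technical. The cells were live, PDPN-positive and negative for CD45, EpCAM and E-cadherin.

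These genes are known as targets of ATF4, the transcription factor of the integrated stress response. When amino acids run short or the endoplasmic reticulum is stressed, kinases phosphorylate the initiation factor eIF2, general translation slows, and the Atf4 messenger is translated more, so that the level of that messenger need not follow the activity of the protein. ATF4 pairs with C/EBP family proteins on a composite DNA element and induces genes that make or import amino acids. Activated fibroblasts use serine and glycine for collagen, a protein rich in glycine.

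A short form of the composite element, TGATGNAA, was looked for on both strands of RefSeq promoter windows (GRCm38.p6, 250 bases before to 50 after a gene's start). A window was found for 9 of the 10 genes and not for Slc7a5, and the windows of Asns, Slc7a11 and Trib3 held the letters. Among 32851 windows of the same length, 3.97% held them. The 3 windows with a match are printed so that the element can be read in place, and the first of 2 windows of Psat1, which has none, is printed because Psat1 had the lowest fold change of the 10 genes. Each runs 5′ to 3′ along the gene's own strand, which is the minus strand for all 4, and capitals mark the matches. The windows are chr6:7693160-7693459 for Asns, chr3:50443564-50443863 for Slc7a11, chr2:152344011-152344310 for Trib3 and chr19:15925010-15925309 for Psat1.
Asns: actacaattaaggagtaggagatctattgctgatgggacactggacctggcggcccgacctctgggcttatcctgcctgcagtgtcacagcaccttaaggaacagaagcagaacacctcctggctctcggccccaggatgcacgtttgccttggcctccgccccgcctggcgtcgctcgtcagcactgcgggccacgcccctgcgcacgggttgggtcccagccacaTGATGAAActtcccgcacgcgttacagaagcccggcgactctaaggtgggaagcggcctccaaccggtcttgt
Slc7a11: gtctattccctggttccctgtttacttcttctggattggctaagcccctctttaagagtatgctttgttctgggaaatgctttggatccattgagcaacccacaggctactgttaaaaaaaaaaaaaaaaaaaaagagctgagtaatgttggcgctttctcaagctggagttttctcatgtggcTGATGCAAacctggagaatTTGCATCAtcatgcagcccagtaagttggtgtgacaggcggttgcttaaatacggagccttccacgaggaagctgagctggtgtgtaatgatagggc
Trib3: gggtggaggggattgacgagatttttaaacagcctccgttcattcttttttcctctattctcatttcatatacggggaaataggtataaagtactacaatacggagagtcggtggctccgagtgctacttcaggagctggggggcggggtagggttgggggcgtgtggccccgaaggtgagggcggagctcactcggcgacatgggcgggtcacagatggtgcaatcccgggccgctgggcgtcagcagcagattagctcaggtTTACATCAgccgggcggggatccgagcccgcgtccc
Psat1: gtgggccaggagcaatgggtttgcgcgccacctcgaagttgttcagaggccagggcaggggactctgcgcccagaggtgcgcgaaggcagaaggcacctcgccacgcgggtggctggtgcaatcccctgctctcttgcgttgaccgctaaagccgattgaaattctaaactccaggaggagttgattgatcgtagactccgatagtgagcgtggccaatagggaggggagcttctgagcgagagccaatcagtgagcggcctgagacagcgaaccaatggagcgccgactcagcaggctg
The match in Asns began 23 bases before the start. Slc7a11 held a pair that did not overlap, beginning 66 and 47 bases before the start, the nearer one on the opposite strand. The match in Trib3 lay past the start and on the opposite strand. A match is a description of letters and not a shown binding site.

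The libraries held 13671817 and 14083280.0 reads for LDE225 1 and 2, against 7578822, 11194991 and 9319936 for vehicle 1, 2 and 3, all counted on the listed genes. Values are DESeq2-normalised read counts, in which 1 read was worth between 0.803 and 1.27. Gli1, the standard Hedgehog readout, was at 22.5 and 14.4 in the LDE225 libraries and at 315, 463 and 264 in the vehicle libraries. All 15 pan-fibroblast markers were present, and Pdpn, the sorting marker, was between 2123 and 5183 in all 5 libraries. The fibroblast markers summed to 1421196 and 1544034 with LDE225, against 890126, 1435034 and 1497483 with vehicle, lowest in vehicle 1. Log2 fold changes were positive for 12 of the 15 and negative for 3, where 49.6% of all genes were negative. DESeq2 called 3 higher and 0 lower, where it called 2.28% of all genes higher and 1.74% lower. Sums of neutrophil, macrophage, epithelial and mesothelial markers were highest in vehicle 1, while those of acinar, endothelial and pericyte markers were not. The part of these differences in the genes described here was not tested. The gated-out proteins had some transcripts left: Epcam was at 687 and 78.6 with LDE225, against 325, 71.5 and 213 with vehicle, and Ptprc, which encodes CD45, at 27.3 and 18.6, against 104, 8.69 and 16.3. Of 33 proliferation genes 0 passed in limma and DESeq2 called 22 lower, where it called 1.74% of all genes lower. A negative log2 fold change was found for 33 of 33, against 49.6% of all genes, with a median of -1.29. In bulk samples fewer cells of a type and less RNA per cell cannot be told apart.

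None of the 10 genes passed the test between LDE225 and vehicle. The question of this comparison is how blocking Hedgehog signalling alters tumour fibroblasts. Psat1 and Mthfd2 were lower in both LDE225 libraries than in every vehicle library, by 1.78-fold and 1.77-fold in the group means, and the groups overlapped for the other 8. In limma on log2(value + 1), two-sided and adjusted over all 13183 genes by Benjamini-Hochberg, 0 of 10 had an adjusted p under 0.05, where 0.0303% of all genes did (3 higher, 0.0228%, and 1 lower, 0.00759%, or 4 and 2 genes after scaling to the same total). At an unadjusted p under 0.05 there was 1 of 10 (Psat1, lower), where 5.71% of all genes were lower and 6.92% higher at that level. The groups were separated with LDE225 lower for 2 of 10 genes, where that held for 15.2% of all genes, and with LDE225 higher for 0 of 10, where it held for 16.6%. On whole reads recovered from the values, edgeR's quasi-likelihood test called 0 of 10 (0.0152% of all genes) and DESeq2 called 1 of 10, Psat1, where it called 4.02% of all genes (2.28% higher and 1.74% lower). Log2 fold changes were negative for 7 of 10 genes, against 49.6% of all genes, with a median of -0.22, against 0.0030 over all genes tested. An exact permutation test of 1 gene over 5 libraries has 0.2 as its smallest two-sided p and was left out.

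**Figure D1:**
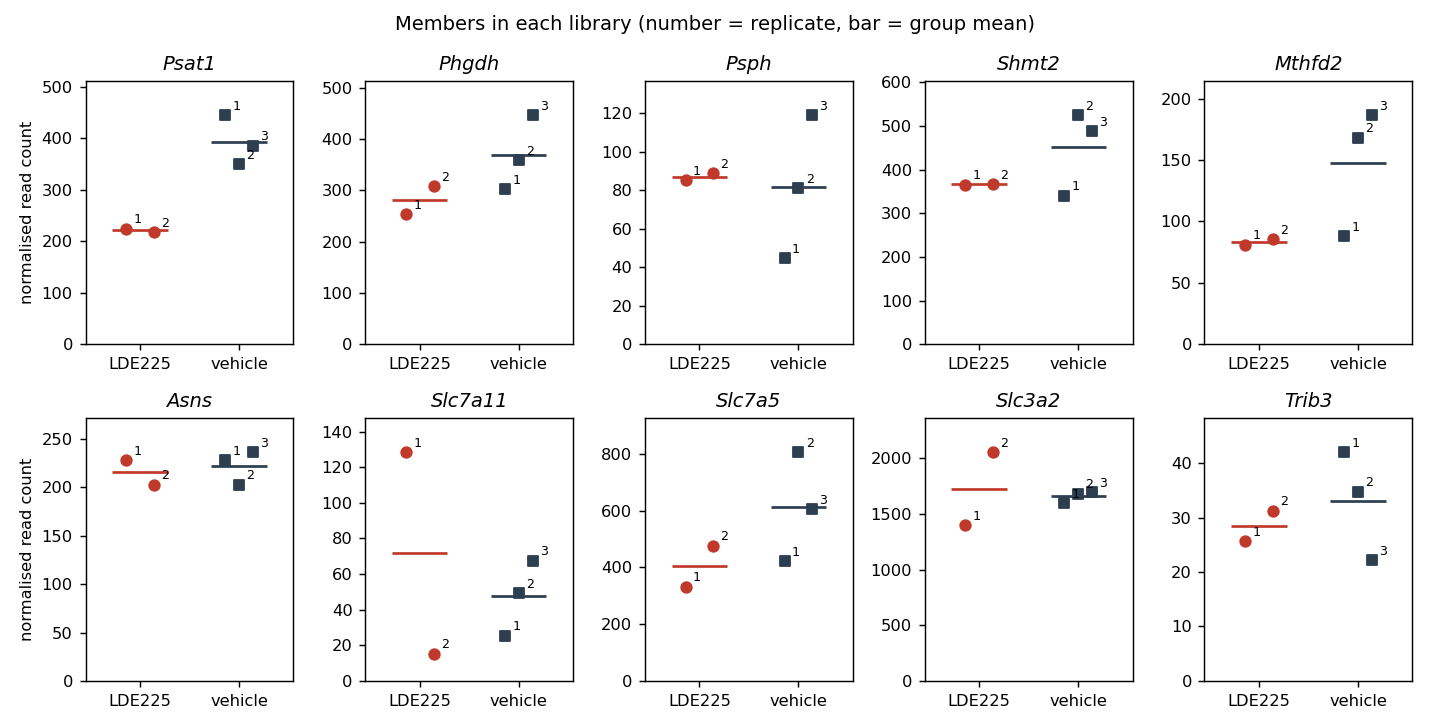
Normalised read counts (vertical axis, from 0, a scale per gene) of the 10 genes in the 2 LDE225 libraries (red circles) and the 3 vehicle libraries (dark squares), with replicate numbers and bars at group means. Psat1 and Mthfd2 have both LDE225 libraries below every vehicle library, and Slc7a11 is spread most widely between the LDE225 libraries, at 129 and 15.2.

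**Figure D2:**
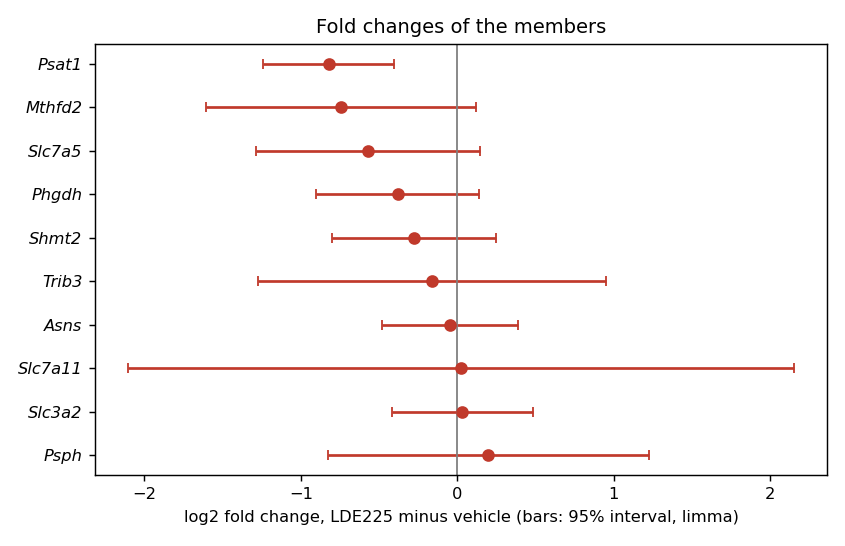
Log2 fold changes of the 10 genes, LDE225 minus vehicle, on the horizontal axis, with 95% intervals from limma. The interval of Psat1, from -1.24 to -0.40 before any adjustment for the number of genes, lies below 0, and the intervals of the other 9 include 0.

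Serine is made from a glycolytic intermediate in a chain of reactions, and the enzymes of this chain did not share a pattern over the libraries. Psat1, the aminotransferase of the middle reaction, was at 224 and 218 normalised counts in the LDE225 libraries, against 445, 349.6 and 385 in the vehicle libraries. The LDE225 libraries differed from each other by 1.03-fold, and the vehicle libraries spanned 1.27-fold. The means were 221 ± 4.30 with LDE225 (SD, n = 2) and 393 ± 48.1 with vehicle (SD, n = 3). The log2 fold change was -0.82 ± 0.17 (SE; limma adjusted p = 0.161), with the 208th smallest unadjusted p of 13183. DESeq2 gave -0.83 with an adjusted p of 0.0151, and edgeR -0.83 with an adjusted p of 0.172. The adjusted p of Psat1 over all 19 alternatives ran between 0.0151 and 0.814, and its log2 fold change between -0.95 and -0.73. Psat1 spans chromosome 19 from 15904678 to 15947337 (minus strand, GRCm38), with a pseudogene in an intron on the other strand.

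Phgdh encodes the dehydrogenase that commits the intermediate to serine. It was at 253 and 309 in the LDE225 libraries, against 302, 358 and 446 in the vehicle libraries. LDE225 2 lay just above the lowest vehicle library, so the groups overlapped. On the log2 scale the difference was -0.38 ± 0.22 (SE; limma adjusted p = 0.542), with a 95% interval from -0.90 to 0.14. It was -0.23 without vehicle 3, -0.24 without LDE225 1 and -0.52 without LDE225 2. Phgdh has 12 processed pseudogenes that share at least 95% of bases over 200 or more with its transcripts. All 15180 genes in the table are protein-coding, so none of these pseudogenes could be listed there. How reads were divided among such copies is not given in the sources used here.

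Psph encodes the phosphatase of the last reaction. It was at 85.2 and 88.7 in the LDE225 libraries, within the range of the vehicle libraries at 44.6, 81.1 and 119. Vehicle replicates thus spanned 2.66-fold, and the 95% interval of the log2 fold change (0.20 ± 0.43, SE; limma adjusted p = 0.891) ran from -0.83 to 1.23. Without vehicle 1 the log2 fold change turned to -0.17, and it was -0.11 with array weights. The exons of Psph overlap those of Cct6a on the other strand. Cct6a was itself at 929 and 915 with LDE225, against 1147, 1466 and 1330.0 with vehicle, and the strand setting of the counting is not given in the sources used here.

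The mitochondrial steps split serine and pass its one-carbon unit on to folate. Shmt2, the hydroxymethyltransferase that turns serine into glycine, was at 366 and 367 in the LDE225 libraries, against 340.3, 524 and 488 in the vehicle libraries. Vehicle 1 lay below both LDE225 libraries, while the other vehicle libraries lay above them. limma gave a log2 fold change of -0.27 ± 0.22 (SE; adjusted p = 0.666), which was -0.47 without vehicle 1 and -0.15 without vehicle 2. Exons of Shmt2 overlap those of Ndufa4l2 on the other strand, which was at 85.2 and 198 with LDE225, against 269, 614 and 194 with vehicle.

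Mthfd2 encodes the next enzyme, a dehydrogenase and cyclohydrolase that is abundant in embryonic, proliferating and tumour cells and low in most adult tissue. It was at 81.1 and 85.4 in the LDE225 libraries, against 87.9, 168 and 186 in the vehicle libraries. Both LDE225 libraries were lower than all vehicle libraries, but vehicle 1 was close to them. The means were 83.3 ± 2.99 with LDE225 (SD, n = 2) and 147 ± 52.3 with vehicle (SD, n = 3). The log2 fold change was -0.75 ± 0.36 (SE; limma adjusted p = 0.464), with a 95% interval from -1.61 to 0.12, and it was -1.08 without vehicle 1 (adjusted p = 0.135) and -0.54 without vehicle 3. Mthfd2 spans chromosome 6 from 83305691 to 83325908 on the minus strand.

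Proliferation genes were also lower in the LDE225 libraries, with groups separated for 30 of 33, where 15.2% of all genes were separated with LDE225 lower. Relative to the mean of the 5 libraries, the mean level of the proliferation genes was -0.80 and -0.60 (log2) in the LDE225 libraries, against 0.46, 0.58 and 0.35 in the vehicle libraries. Psat1 itself was at -0.47 and -0.51, against 0.51, 0.17 and 0.31. Mki67, the marker of cycling cells, was at 456 and 537, against 1367, 1436 and 1165. The mesothelial markers summed to 5021 and 4573, against 13959, 6735 and 7253. Of these markers 8 of 8 had a negative log2 fold change, against 49.6% of all genes. The groups were separated with LDE225 lower for 6 of the 8, against 15.2% of all genes. DESeq2 called 4 of the 8 lower, against 1.74% of all genes, and limma called 0. The part of either in the values of Psat1 and Mthfd2 was not tested.

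Asns, the synthetase that makes asparagine from aspartate and glutamine, had the most even values of the 10 genes over both groups. It was at 228 and 203 in the LDE225 libraries, against 228, 203 and 236 in the vehicle libraries. The groups overlapped almost fully, and the log2 fold change was -0.045 ± 0.18 (SE; limma adjusted p = 0.947). Asns had 179 to 284 reads per library. Its 95% interval from -0.48 to 0.39 is the narrowest of the 10 after that of Psat1. A change within that interval could not be told from none with these 5 libraries. The sign turned without LDE225 2 (0.040) and without vehicle 3 (0.00041). Asns, whose promoter window printed above holds 1 match, spans chromosome 6 from 7675169 to 7693254 on the minus strand.

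The transporters are light chains, Slc7a5 (LAT1, for large neutral amino acids such as leucine) and Slc7a11 (xCT, which imports cystine in exchange for glutamate), and the heavy chain Slc3a2 that both need at the cell surface. Slc3a2 was at 1398 and 2055 in the LDE225 libraries, against 1594, 1679 and 1696 in the vehicle libraries. The vehicle libraries agreed within 1.06-fold, while 1 LDE225 library lay below them and the other above. The log2 fold change was 0.034 ± 0.19 (SE; limma adjusted p = 0.963), and it turned to -0.10 after scaling to the same total, -0.048 with quantile normalisation and -0.24 without LDE225 2.

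Slc7a5 was at 332 and 476 in the LDE225 libraries, against 422, 806 and 606 in the vehicle libraries. Only vehicle 1 fell within the range of the LDE225 libraries. The means were 404 ± 102 with LDE225 (SD, n = 2) and 611 ± 192 with vehicle (SD, n = 3), and the log2 fold change was -0.57 ± 0.30 (SE; limma adjusted p = 0.504). Leaving out vehicle 2 gave -0.35, leaving out LDE225 1 gave -0.31, and leaving out LDE225 2 gave -0.83. Myc, which encodes a transcription factor known to act on Slc7a5 and Shmt2, was at 670.01 and 1525, against 605, 331 and 922 (log2 fold change 0.83 ± 0.49, SE; limma adjusted p = 0.559).

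Slc7a11 differed more between the LDE225 libraries than between the groups. It was at 129 and 15.2 in LDE225 1 and 2, an 8.45-fold difference, against 25.5, 49.2 and 67.5 in the vehicle libraries. The LDE225 libraries thus lay on either side of all vehicle libraries. The log2 fold change was 0.026 ± 0.89 (SE; limma adjusted p = 0.996). It was 0.60 in edgeR (adjusted p = 0.822) and 0.60 in DESeq2 (adjusted p = 0.884). In limma it was -1.47 without LDE225 1, 1.52 without LDE225 2 and -0.36 without vehicle 1. These values rest on 160 and 18 reads, against 20, 51 and 58 reads. Epcam, given above, was also high in LDE225 1 and low in LDE225 2. The 15 epithelial markers summed to 7284 and 3106 in the LDE225 libraries, against 8366, 7585 and 7929 in the vehicle libraries, with none at 0, and their part in the values of Slc7a11 was not tested. Slc7a11 spans chromosome 3 from 49892526 to 50443614 on the minus strand, and its annotated exons include a stretch that resembles the tubulin genes Tuba1a, Tuba1b and Tuba1c.

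Trib3, a pseudokinase that binds AKT and ATF4 and damps the stress response in return, had the lowest mean value of the 10 genes. It was at 25.7 and 31.3 in the LDE225 libraries, against 42.1, 34.8 and 22.1 in the vehicle libraries, from 19 to 37 reads per library. Both LDE225 libraries lay inside the vehicle range. With so few reads the log2 fold change was -0.16 ± 0.47 (SE; limma adjusted p = 0.923), with a 95% interval from -1.28 to 0.95.

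**Figure D3:**
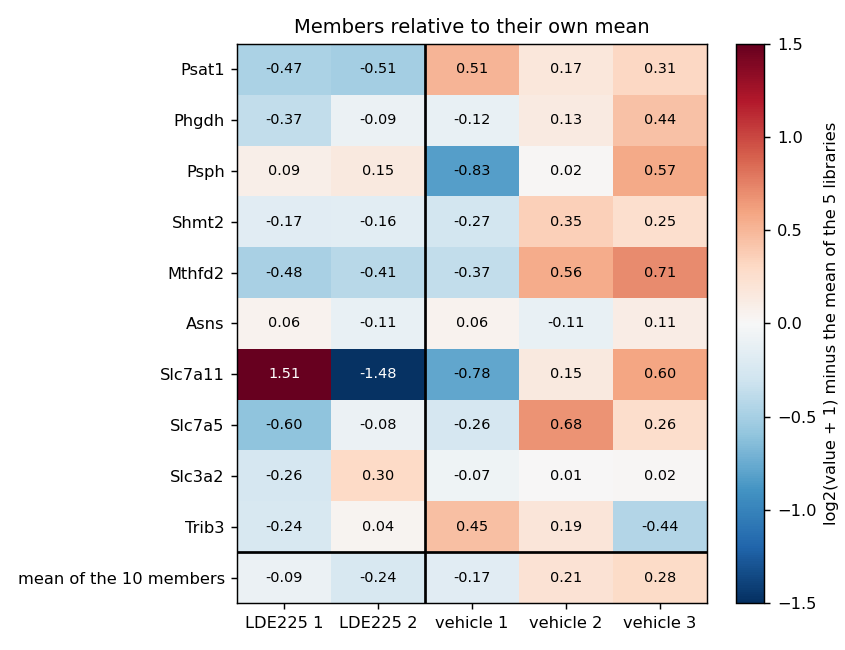
Each gene's log2(value + 1) in each library minus its own mean over the 5 libraries, with the mean of the 10 genes in the bottom row (red above, blue below). Psat1 has negative values in both LDE225 libraries and positive values in all 3 vehicle libraries, while for Mthfd2 and Shmt2 vehicle 1 is negative with the LDE225 libraries.

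The 10 genes had no common level that separated the groups. Their mean level relative to the 5 libraries was -0.093 and -0.24 (log2) in the LDE225 libraries, against -0.17, 0.21 and 0.28 in the vehicle libraries. Vehicle 1 thus lay between the LDE225 libraries, and vehicle 2 and 3 were the high ones. Without vehicle 1 the median log2 fold change of the 10 genes was -0.41, and without vehicle 2 it was -0.13. The profile of Shmt2 was closest to the mean of the 10 (root mean square difference 0.092, log2), and that of Slc7a11 the farthest (0.96). Of 10930 other genes with a mean of at least 50, the nearest to the mean profile of the 10 over the 5 libraries were Zc3h15 (0.025), Hnrnpa2b1 (0.027), Hspd1 (0.030), Tars (0.033) and Nol9 (0.035). Tars, threonyl-tRNA synthetase, was at 635 and 599 in the LDE225 libraries, against 594, 785 and 802 in the vehicle libraries. The groups overlapped for each of these 5 genes, and limma adjusted p-values lay between 0.573 and 0.675.

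Levels between genes were compared per kilobase of annotated exons (GENCODE M21). With vehicle, Slc3a2 was the highest at 469 normalised counts per kb, followed by Slc7a5 (165), Phgdh (148), Shmt2 (145), Psat1 (92.4), Asns (81.3), Mthfd2 (42.3), Psph (18.8), Trib3 (15.5) and Slc7a11 (3.41). The ranges over vehicle libraries overlapped between Slc7a5, Phgdh and Shmt2, and between Psat1 and Asns. They also overlapped between Mthfd2 and Psph, and between Psph and Trib3. No test was made between genes. Within libraries, Psat1 was above Asns and Slc7a5 above Shmt2 in all 3 vehicle libraries. Slc7a11 has 13.922 kb of annotated exons, more than the isoform a cell uses may hold, which lowers its level per kb. With LDE225 the level per kb of Psat1 was 52.7 and 51.3, below that of Asns at 83.4 and 74.2, whereas the vehicle ranges of both genes overlapped (82.2 to 105 for Psat1 and 74.1 to 86.4 for Asns). Slc3a2 exceeded the level per kb of Slc7a5 and of Slc7a11 in all 5 libraries.

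**Figure D4:**
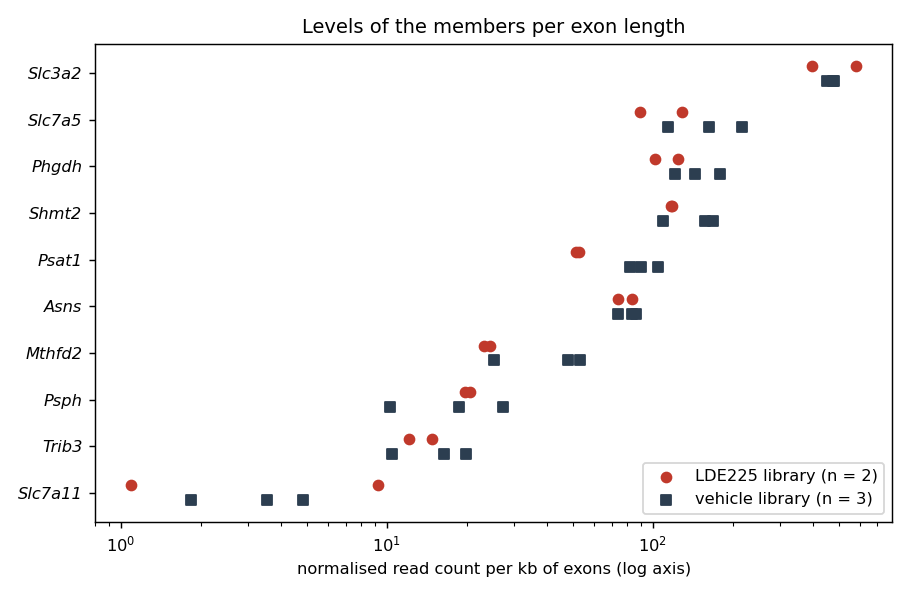
Normalised read counts per kilobase of annotated exons (horizontal log axis) of the 10 genes in the LDE225 libraries (red circles, n = 2) and the vehicle libraries (dark squares, n = 3), ordered by the vehicle mean. Slc3a2 lies above the other genes in every library, and the LDE225 points of Psat1 lie below its vehicle points.

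Upstream of these genes, Atf4 itself was at 1902 and 1619 in the LDE225 libraries, against 1745, 1268 and 1565 in the vehicle libraries (log2 fold change 0.21 ± 0.18, SE; limma adjusted p = 0.686). Of 14 upstream genes of the integrated stress response 0 passed the test. Eif2s1, the eIF2 subunit that the stress kinases phosphorylate, was at 539 and 519.8, against 759.5, 767 and 701 (-0.49 ± 0.14, adjusted p = 0.237). Impact, an inhibitor of the kinase that senses amino acid shortage, was at 881 and 809.7, against 731, 491 and 470.5 (0.61 ± 0.22, adjusted p = 0.330). The groups were separated for both genes, in opposite directions, and both were named for the smallest p of the list. Over the 14 genes the groups were separated with LDE225 lower for 3 and higher for 1, where 15.2% and 16.6% of all genes were. Next by p were Eif2b3, of the eIF2 exchange factor (-0.72, adjusted p = 0.418), and the double-stranded RNA kinase gene Eif2ak2 (-0.31, adjusted p = 0.629).

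Of 20 other known ATF4 targets 18 were tested and 0 passed in limma or edgeR, and 11 had a positive log2 fold change, with a median of 0.39, against -0.22 for the 10 genes and 0.0030 for all genes. The difference between the lists was not tested. Without vehicle 2 the median of the other targets was 0.17. Vldlr, a lipoprotein receptor gene, was at 659 and 789 with LDE225, against 419, 459.6 and 349 with vehicle (0.82 ± 0.18; limma adjusted p = 0.170, DESeq2 adjusted p = 0.0155). Gdf15, a stress-induced cytokine gene, was at 62.7 and 24.5, against 8.92, 3.86 and 14.0 (2.17 ± 0.79; limma adjusted p = 0.330). Atf5, a relative of Atf4 (0.64, adjusted p = 0.418), and Herpud1, of protein degradation at the endoplasmic reticulum (0.62, adjusted p = 0.506), had overlapping groups, as had the stress factors Ddit3 (0.46, adjusted p = 0.586) and Chac1 (-0.090, adjusted p = 0.976). Early-response genes known to be induced by cell dissociation were at positive log2 fold changes for 13 of 15 (0 passed, median 0.48). Over all genes 49.6% were negative. The groups were separated with LDE225 higher for 7 of the 15 and lower for 1, where 16.6% and 15.2% of all genes were. The mean level of the 15 genes was 0.15 and 0.38 (log2, relative to the 5 libraries) with LDE225, against 0.089, -0.73 and 0.11 with vehicle, so vehicle 2 alone stood far below the rest. Their part in the values of these stress genes was not tested.

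Of 22 other one-carbon genes 0 passed, and the median log2 fold change of -0.031 lay between -0.098 and -0.0058 with 1 library left out. The groups were separated with LDE225 lower for 7 of the 22 and higher for 3, where 15.2% and 16.6% of all genes were. The cytosolic relative of Shmt2, Shmt1, was at 32.9 and 27.9 with LDE225, against 109.6, 47.3 and 55.9 with vehicle (-1.10 ± 0.45; limma adjusted p = 0.383). Mthfd1l, the mitochondrial enzyme that releases formate downstream of Mthfd2, was at 157 and 214, against 255, 356 and 268 (-0.66 ± 0.24; limma adjusted p = 0.327). Tyms, thymidylate synthase, which uses the one-carbon unit for DNA, was at 149 and 151, against 231, 236 and 252 (-0.67 ± 0.18; limma adjusted p = 0.214). The groups were separated for all 3 genes, with LDE225 lower. Sfxn3, a mitochondrial serine carrier gene (0.44, adjusted p = 0.329), and Aldh1l1, which oxidises the one-carbon unit (0.43, adjusted p = 0.370), were separated the other way, and Cth, of cysteine synthesis, had overlapping groups (-0.80, adjusted p = 0.599). Of 18 other genes of amino acid synthesis 0 passed in limma, and the median of -0.0063 lay between -0.13 and 0.085 with 1 library left out. Aldh18a1 and Pycr1, of proline synthesis, had log2 fold changes of -0.14 (limma adjusted p = 0.722) and -0.092 (limma adjusted p = 0.927). Glul, glutamine synthetase, was at 2039.8 and 3475, against 1474, 1260.1 and 1835 (0.82 ± 0.27; limma adjusted p = 0.290).

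Of 20 other amino acid transporters 18 were tested and 0 passed in limma, with a median of 0.24 that was 0.14 without vehicle 1 and 0.10 after scaling to the same total. Slc38a1, a glutamine carrier, was at 329 and 390.5 with LDE225, against 822, 599 and 580.0 with vehicle (-0.87 ± 0.20; limma adjusted p = 0.186, DESeq2 adjusted p = 0.0221). Slc38a9, the lysosomal arginine sensor of mTORC1, was at 119 and 145, against 79.0, 64.7 and 67.5 (0.90 ± 0.26; limma adjusted p = 0.242), and Slc1a5, a glutamine carrier, had a log2 fold change of 0.45 (adjusted p = 0.555). Of 20 cytosolic tRNA synthetases, several of them known ATF4 targets, 0 passed, and 17 had a negative log2 fold change with a median of -0.24, near that of the 10 genes. Both LDE225 libraries were lower than every vehicle library for 8 of the 20, where 15.2% of all genes were. As a list they did not separate the groups: their mean level relative to the 5 libraries was -0.11 and -0.11 (log2) with LDE225, against -0.12, 0.17 and 0.16 with vehicle, so that vehicle 1 was the lowest. The median was -0.16 without vehicle 2 and -0.15 without vehicle 3. Vars was the smallest by p (-0.46 ± 0.15; limma adjusted p = 0.290). Of 17 mitochondrial synthetases 0 passed, and the median of -0.13 became -0.00031 without LDE225 2 and 0.034 without vehicle 1. NRF2 is another known inducer of Slc7a11: of NRF2 and 12 of its targets 0 of 13 passed in limma, with a median of -0.15 that was -0.036 without LDE225 1 and -0.32 without LDE225 2. Gsr, glutathione reductase, was at 582 and 729, against 1115, 1355 and 1018 (-0.83 ± 0.18; limma adjusted p = 0.175, DESeq2 adjusted p = 0.0134).

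**Figure D5:**
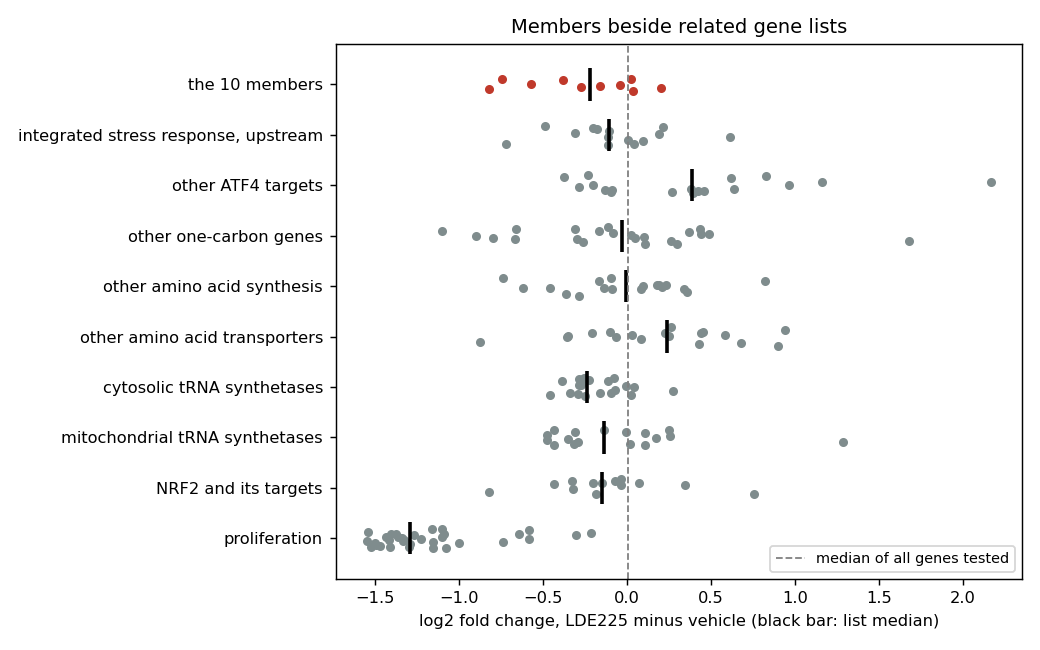
Log2 fold changes, LDE225 minus vehicle, of the 10 genes (red) and of related gene lists (grey), 1 point per gene tested, with a black bar at each list's median and a dashed line at the median of all genes tested. The median of the 10 genes is -0.22, that of the other ATF4 targets 0.39 and that of the proliferation genes -1.29.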

How the data were processed

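RNA of sorted cells was made into directional libraries after depletion of ribosomal RNA, per the labels' protocols. Per gene, the authors deposited a signal, namely DESeq2-normalised read counts that are not scaled for length. Per the submitters' processing notes the tools were DESeq2 1.22.2, RSEM 1.2.29 and STAR 2.7.3, with GRCm38 as the build; which step each served is not recorded there. The sources used here name no annotation, gene filter or strand setting. Another 3 columns without a header were not used. Every value was a whole multiple of its library's smallest one within 0.001 reads (100% of values), which gave whole reads.

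The 10 genes and all lists were chosen with earlier results of these data known. Samples were grouped by title. The test was limma 3.58.1 (R 4.3.3) on log2(value + 1), its empirical Bayes step using a mean trend; 13183 genes averaging 10 or more were tested. The pseudocount understates changes of low genes. The fit was also run on simulated counts. These were drawn for each gene on its own, so that run cannot speak to differences in cell make-up between libraries. Positions and lengths are from GENCODE M21. Beside the 10 genes, the text names up to 4 genes per list by smallest p, a set of fixed genes, and the 5 nearest profiles. A gene that this rule names is not reported here. Alternatives were the pseudocount, the filter, the scaling, the variance model, a replicate block, each library left out, edgeR 4.0.16 and DESeq2 1.42.0. Replicates differed beyond sampling noise in every pair (chi-square over its degrees of freedom from 24.0 up).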

Additional observations from a re-analysis of the deposited data

How the results depend on the processing

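The 10 genes were recomputed under 19 alternatives, which gave 189 values (Trib3 falls below a mean of 50). Of these 173 kept their direction and stayed uncalled, 15 changed sign and 1 passed the threshold. DESeq2 called 1 of the 10 genes lower, Psat1, and 0 were called higher under any alternative. The directions of Psat1, Phgdh, Shmt2, Mthfd2 and Slc7a5 held under all 19. The sign changes outside the omission of a library were Slc7a11 (-0.10 with the same total, -0.0011 with the same upper quartile, -0.27 with array weights), Slc3a2 (-0.10 with the same total, -0.048 with quantile normalisation), Psph (-0.11) and Trib3 (0.047) with array weights, and Asns with the replicate block (0.00041). The cause was not tested. Leaving out each library in turn gave log2 fold changes from -1.47 to 1.52 for Slc7a11, -0.24 to 0.31 for Slc3a2, -0.17 to 0.52 for Psph, -0.13 to 0.040 for Asns and -0.42 to 0.030 for Trib3. Scaling to the same total moved the median of all genes to -0.13.

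Over all genes 3 were called higher and 1 lower. The counts were 4 and 2 with the same total, 2 and 0 without a mean trend, 70 and 38 with array weights, 2 and 0 in edgeR with either scaling, and 300 and 230 in DESeq2. With 1 library left out they lay between 0 and 6 higher and between 0 and 4 lower. With the replicate block they were 16 and 5, and 0 of the 10 genes were called. The labels do not say that a replicate number marks a shared source, so the samples were taken to share only a number. Deviations of same-numbered libraries correlated at 0.13 (number 1) and -0.017 (number 2). With 2 LDE225 libraries the deviations of one mirror those of the other, so these correlations cannot decide whether a source was shared.

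Read numbers were low for Trib3 (19 to 37 reads) and Slc7a11 (18 to 160 reads). Slc7a11 also differed by 8.45-fold between the LDE225 libraries, and 5 libraries limit all 10 genes.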
